A study of Mus musculus with 12 samples.

Results

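Lysosomal genes, with progranulin (Grn) among them, were followed in the mouse microglial cell line SIM-A9, from the C57BL/6 strain. The set held 38 genes of the 30994 counted, chosen by symbol and matched each to 1 Ensembl row through a GRCm38 annotation. Its members were 10 proteases and peptidases, 8 glycosidases, lipases and related hydrolases, 3 cofactors and lipid carriers (Grn, Psap and Npc2), 10 membrane proteins, 5 proton pump genes and the transcription factors Tfeb and Tfe3. The assay was SLAM-seq, in which RNA made during a pulse of 4-thiouridine is told from older RNA by base changes that iodoacetamide treatment brings out in the reads, and the libraries sampled mRNA 3′ ends. All cells, in serum-free medium, first had 10 µM polymixin B for 1 h, which binds bacterial endotoxin. They then had 10 µM C13, which the series title calls a MOK inhibitor, or its solvent DMSO for 1 h. Aggregates of TDP-43, an RNA-binding protein, or a sham preparation followed at 5 µg/mL for 2.5 h, and 100 µM 4-thiouridine was then present for 90 min, which gave 4 h with aggregates. The 4 groups are named by drug and aggregate as DMSO/sham, DMSO/TDP-43, C13/sham and C13/TDP-43. Each had 3 libraries, and all came from 1 cell line. The sources call the libraries biological replicates without naming separate cultures, so p-values measure the spread between these libraries, which may be technical.

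Lysosomes are acidic organelles in which hydrolases break down proteins, glycans and lipids taken up by endocytosis or delivered by autophagy. The vacuolar ATPase pumps protons into the lumen, membrane proteins such as LAMP1 and LAMP2 line and protect the organelle, and cofactors such as the saposins present lipids to the enzymes. TFEB and TFE3 are transcription factors that bind a short palindromic element in the promoters of many lysosomal genes. Microglia and other macrophages degrade much of what they engulf in lysosomes, and loss of progranulin, a secreted and lysosomal protein, causes a lysosomal storage disease or a form of frontotemporal dementia with TDP-43 deposits.

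The element bound by TFEB and TFE3 has the core CACGTG, and a palindromic extension of it is TCACGTGA, which contains that core. RefSeq promoter windows of 300 bases, 250 before and 50 after the start, matched 32 of the 38 members. CACGTG was in the window of 11 members, 34.4% of those matched, against 8.09% of 27025 genes with a window. TCACGTGA was in the windows of 6 members, Ctsa, Ctsd, Mcoln1, Cln3, Atp6v0d1 and Atp6v1a, which is 18.8% against 1.13% of genes. Both motifs are their own reverse complement, so both strands were covered. One 26-base stretch around the longer motif is shown for each of the 6 members that carry it. With a G directly before it and a C directly after it, this motif was in the window of 1 member, Cln3. That is 3.1% of the members matched, against 0.37% of genes. The stretches come from RefSeq on GRCm38.p6, are written 5′ to 3′ on the gene's strand, and have the motif in capitals.
Ctsa, chr2:164833751-164833776, plus strand: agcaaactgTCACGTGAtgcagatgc
Ctsd, chr7:142387910-142387935, minus strand: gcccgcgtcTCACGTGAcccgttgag
Mcoln1, chr8:3500464-3500489, plus strand: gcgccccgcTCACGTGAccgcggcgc
Cln3, chr7:126583342-126583367, minus strand: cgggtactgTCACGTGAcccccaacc
Atp6v0d1, chr8:105566052-105566077, minus strand: ctactgcggTCACGTGAgacgcggtg
Atp6v1a, chr16:44139375-44139400, minus strand: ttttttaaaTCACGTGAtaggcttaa
Counted from the transcription start, the motif core began 12 bases before it in this stretch of Ctsa and 3 bases before it in Atp6v0d1, which encodes the d1 subunit of the membrane sector of the pump. A second copy in Ctsa began 5 bases after the start. Lamp1 held 4 copies of the core, none with the longer extension. A match describes these letters and shows no binding.

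The libraries held 17436397 to 41779882 reads in the total table, of which 552042 to 2722812 were nascent. The nascent share of all reads ran from 1.88% in C13/sham replicate 3 to 7.11% in DMSO/sham replicate 2. Mitochondrial ribosomal RNA took 1.17% to 3.70% of reads, the most in C13/sham replicate 3. The 38 lysosomal genes together took 2.39% to 3.44% of total reads and 1.09% to 2.62% of nascent reads, both lowest in that same library. Markers of the microglial and macrophage lineage were present, among them Fcer1g at 508 to 1019, Csf1r at 142 to 281 and Trem2 at 94.4 to 155 in CPM (counts scaled to a library size of 1000000, here plain column totals). Of markers of resting microglia, Tmem119 was at most 1.46, P2ry12 at 0 to 13.1 and Cx3cr1 at 17.6 to 28.3. C1qa, a gene of the wider lineage, was at 0 to 1.32. Astrocyte, neuron and fibroblast markers reached at most 4.05, while Mbp, an oligodendrocyte marker, was at 4.31 to 45.6 and Kdr, an endothelial one, at 92.6 to 148.

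Lysosomal genes were among the most abundant transcripts of these cells. Levels are CPM with library sizes scaled by TMM, and each value below is the mean ± SD over all 12 libraries. Psap, the precursor of the saposins, led with 9976 ± 2412 total CPM. Cd63, a tetraspanin of late endosomes, followed with 2362 ± 512, and Atp6v1a, the catalytic subunit of the pump, with 2012 ± 179.9. The aspartic protease Ctsd was at 1795 ± 145 and Grn at 1559 ± 279. Laptm5, a lysosomal membrane protein of blood cells, was at 1199 ± 141, the pump's accessory subunit Atp6ap1 at 1186 ± 228, the cysteine protease Ctsb at 1158 ± 178 and Lamp1 at 1091 ± 94.7. These 9 lay above 99% of the 11827 genes tested in total RNA, for which the median was 18.1 CPM. The lowest members were the ceramidase Asah1 at 10.5 ± 3.95, the calcium channel Mcoln1 at 18.9 ± 5.16 and the cholesterol transporter Npc1 at 20.2 ± 4.78. Read ends mark 3′ ends, so no length correction was made.

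Levels of some members carry a factor that the sources do not explain. All 24 counts of Ctsd, Ctss, Lipa and Grn were multiples of 2, those of Cd63 and Tfeb of 3, those of Psap of 5 and those of Tfe3 of 7. Among 9932 genes averaging more than 50 reads, 1917 (19.3%) shared a factor in this way. The factor cancels in ratios of a gene's own values but not in limits or intervals that rest on counts. The order of levels between genes is uncertain by its size. Divided by it, Psap would be at 1995 CPM and Grn at 779.

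Of the members, 13 overlap an annotated gene on the other strand, Grn and Cln3 among them, and Glb1 overlaps Tmppe on its own strand. Whether counting used the strand is not given in the sources used here, so reads of such partners cannot be told apart.

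**Figure D1:**
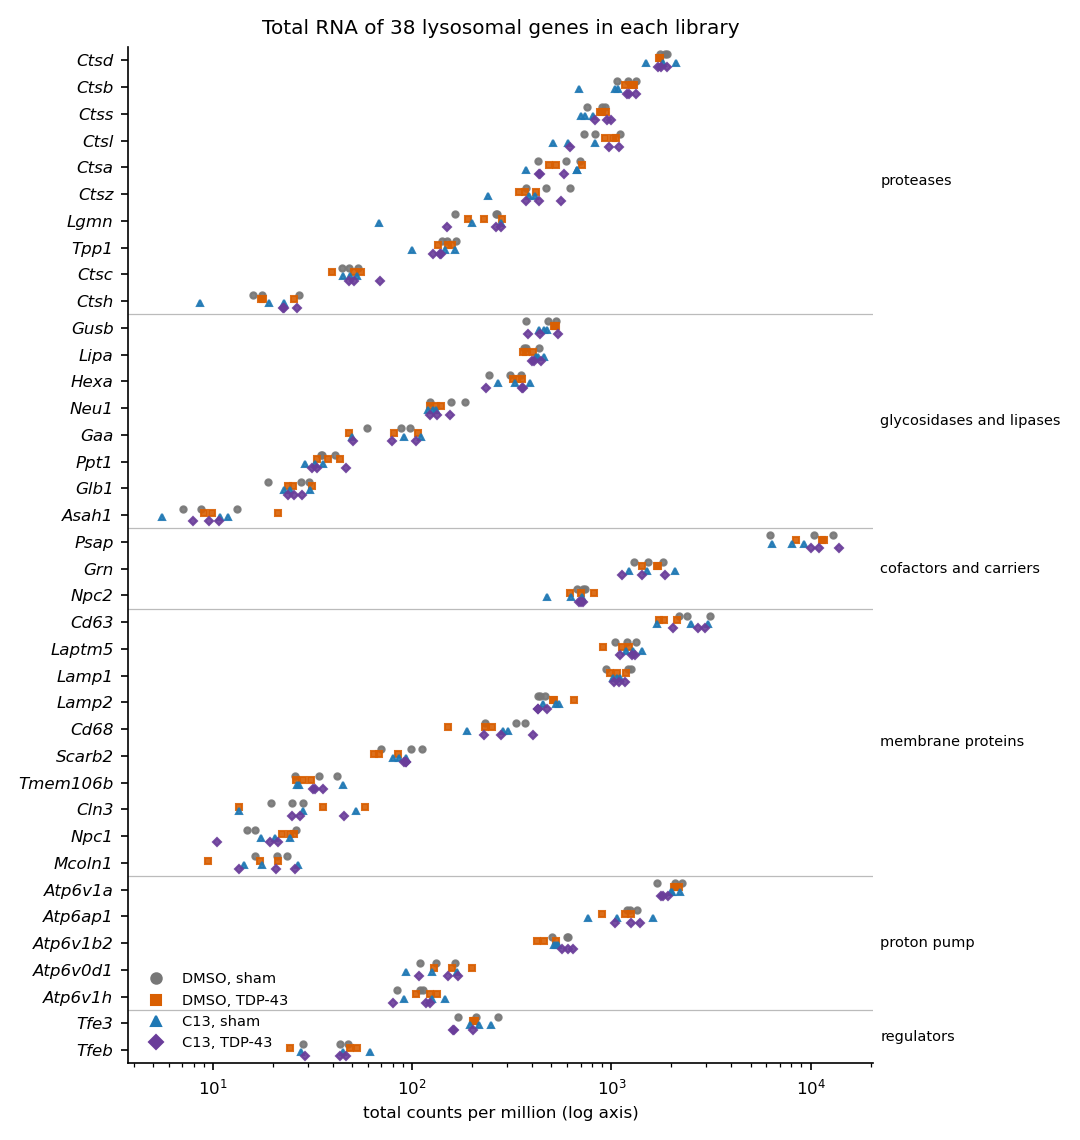
Total CPM (log axis) of the 38 lysosomal genes in each of the 12 libraries, coloured by group, with genes ordered by role. For most genes the 4 groups overlap, while the genes span from Asah1 at 10.5 to Psap at 9976 mean CPM.

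The first question was whether aggregates or C13 changed the total amount of lysosomal transcripts after 4 h. No lysosomal gene passed in total RNA: edgeR's quasi-likelihood test with Benjamini-Hochberg adjustment called 0 of 38 members in each of the 4 pairwise comparisons, the 2 averaged ones and the interaction. It called 0% of all 11827 genes in each of them. DESeq2 also called 0 members there, while calling 8 to 108 genes of the whole table. At an unadjusted p under 0.05, members numbered 0 for TDP-43 against sham under DMSO (4.36% of all genes), 2 under C13 (8.84%), 1 for C13 against DMSO with TDP-43 (5.98%) and 0 with sham (6.1%). The averaged comparisons of TDP-43 (4.73%) and of C13 (4.08%) had 0 such members and the interaction had 2 (7.96%). The median SE of a member's log2 fold change was 0.23 in the pairwise comparisons. The comparisons share libraries with each other, so their values are not independent. Fewer cells and less RNA per cell cannot be told apart in these bulk libraries.

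No difference in total Grn passed. Grn lies at chr11:102430315-102437048 on GRCm38. Its total CPM was 1521, 1812 and 1297 in DMSO/sham, 1431, 1708 and 1703 in DMSO/TDP-43, 1515, 2079 and 1229 in C13/sham, and 1847, 1429 and 1134 in C13/TDP-43. All 4 groups overlapped, with the highest and the lowest library both under C13. The log2 fold change of TDP-43 against sham was 0.06 ± 0.23 (SE) under DMSO (adjusted p = 0.999) and -0.13 ± 0.23 (SE) under C13 (adjusted p = 0.942) by edgeR. C13 against DMSO gave 0.06 ± 0.23 (SE) with sham and -0.13 ± 0.23 (SE) with TDP-43 (adjusted p = 1.00 and 0.988 by edgeR).

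Psap, another secreted and lysosomal protein, varied more. Its total CPM was 10407, 6231 and 12967 in DMSO/sham, 11622, 11453 and 8459.6 in DMSO/TDP-43, 8024, 9221 and 6384 in C13/sham, and 10051, 11001 and 13892 in C13/TDP-43. Under C13 the 3 libraries with TDP-43 all lay above the 3 with sham, while under DMSO the groups overlapped. The log2 fold change under C13 was 0.56 ± 0.25 (SE), which did not pass (adjusted p = 0.559, edgeR). Averaged over both drug arms it was 0.33 ± 0.17 (SE) (adjusted p = 0.948, edgeR) and 0.21 without DMSO/sham replicate 2. Npc2, the soluble cholesterol carrier, ran from 475 to 816 CPM over the 12 libraries.

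Among the proteases, the endopeptidases Ctsb and Ctsl, the aspartic protease Ctsd and the carboxypeptidase Ctsz are given by library. Ctsb total CPM was 1333, 1069.8 and 1212 in DMSO/sham, 1294, 1266 and 1173 in DMSO/TDP-43, 1085, 1037 and 686 in C13/sham, and 1196, 1224 and 1324 in C13/TDP-43. C13/sham replicate 3 was the lowest library, and the C13/sham group lay below the C13/TDP-43 group without overlap. The log2 fold change of TDP-43 against sham under C13 was 0.42 ± 0.19 (SE) (adjusted p = 0.560, edgeR) and it was 0.24 without C13/sham replicate 3. Against DMSO/sham, C13/sham gave -0.36 ± 0.19 (SE) (adjusted p = 0.847, edgeR) and -0.17 without that library.

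Ctsl total CPM was 826, 729.6 and 1110.1 in DMSO/sham, 1013, 1057 and 928 in DMSO/TDP-43, 828, 507 and 604 in C13/sham, and 618, 968 and 1096 in C13/TDP-43. Its spread within groups was wide, with C13/sham replicate 2 the lowest of all and DMSO/sham replicate 3 the highest. The log2 fold change was 0.47 ± 0.24 (SE) for TDP-43 against sham under C13 and -0.46 ± 0.24 (SE) for C13 against DMSO with sham (adjusted p = 0.610 and 0.847, edgeR). The first was 0.31 without C13/TDP-43 replicate 3 and the second -0.28 without DMSO/sham replicate 3. Averaged over the aggregate arms, C13 against DMSO gave -0.31 ± 0.17 (SE) (adjusted p = 0.999, edgeR) and -0.20 without C13/TDP-43 replicate 1.

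Ctsd total CPM was 1760.2, 1897 and 1850.1 in DMSO/sham, 1757, 1758 and 1725 in DMSO/TDP-43, 1809, 2112 and 1491 in C13/sham, and 1717, 1894 and 1767 in C13/TDP-43. It was the steadiest of these proteases, and in DMSO its TDP-43 libraries all lay just under its sham libraries. Ctsz total CPM was 621, 372 and 467 in DMSO/sham, 417, 366 and 345 in DMSO/TDP-43, 386, 414 and 241 in C13/sham, and 557, 371 and 431 in C13/TDP-43. C13/sham replicate 3 was again the lowest, and the other libraries of the groups overlapped. C13 against DMSO with sham gave a log2 fold change of -0.49 ± 0.24 (SE) (adjusted p = 0.826, edgeR) and -0.27 without C13/sham replicate 3, and -0.28 without DMSO/sham replicate 1. The interaction of C13 and TDP-43 gave 0.76 ± 0.34 (SE) for Ctsz (adjusted p = 0.605, edgeR).

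The other proteases were given by their range over the 12 libraries: Ctsa 371 to 715, Ctss 706 to 1000.0, Lgmn 67.9 to 283, Tpp1 99.9 to 167, Ctsc 39.6 to 68.8 and Ctsh 8.57 to 26.9 total CPM. As a group, 9 of the 10 proteases had a lower fitted level in C13/sham than in DMSO/sham, with a median log2 fold change of -0.23 against -0.01 over all genes. With TDP-43 against sham under C13, 7 of 10 were higher, with a median of 0.32 against -0.01. Both comparisons use the C13/sham libraries, so they are not independent, and none of the 10 passed in either. The 10 genes were measured in the same libraries and are not replicates. C13/sham replicate 3 was the lowest of the 12 libraries for Ctsa (371), Ctsb (686), Ctsd (1491), Ctsh (8.57), Ctsz (241) and Tpp1 (99.9). It was not the lowest for Ctsc, Ctsl, Ctss and Lgmn. The count of 9 was not repeated without that library. In C13/sham replicate 3 mitochondrial ribosomal RNA was highest and the lysosomal share of reads lowest, and the part of this in the protease values was tested only by leaving the library out, as given above for Ctsb and Ctsz.

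Of the 8 hydrolases of glycans and lipids, 5 were higher and 3 lower for TDP-43 under DMSO, 2 were higher and 6 lower under C13, and 4 were higher and 4 lower for C13 against DMSO with sham. Lipa, the lysosomal acid lipase, had the smallest p of them in the averaged C13 comparison, after Ctsl and Ctsb. Its total CPM was 433, 374 and 363 in DMSO/sham, 403, 374 and 359 in DMSO/TDP-43, 457, 417 and 426 in C13/sham, and 442, 398 and 409 in C13/TDP-43. The C13 libraries and DMSO libraries overlapped, and the averaged log2 fold change was 0.14 ± 0.11 (SE) (adjusted p = 0.999, edgeR). The others ranged from 372 to 542 total CPM for Gusb and 234 to 391 for Hexa to 121 to 185 for Neu1, 48.0 to 111 for Gaa, 29.1 to 46.4 for the thioesterase Ppt1, 18.9 to 31.2 for the beta-galactosidase Glb1 and 5.54 to 21.1 for Asah1.

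Membrane proteins gave the smallest p-values under DMSO. Cd68, a heavily glycosylated protein of macrophage lysosomes, had a total CPM of 333, 368 and 233 in DMSO/sham, 251, 233 and 151 in DMSO/TDP-43, 284, 301 and 189 in C13/sham, and 402, 280.1 and 229 in C13/TDP-43. DMSO/TDP-43 replicate 3 was the lowest library, and the groups overlapped. TDP-43 against sham under DMSO gave a log2 fold change of -0.56 ± 0.27 (SE) (adjusted p = 0.999, edgeR) and -0.36 without that library. C13 against DMSO with TDP-43 gave 0.52 ± 0.27 (SE) (adjusted p = 0.838, edgeR) and 0.27 without C13/TDP-43 replicate 1 (0.34 without DMSO/TDP-43 replicate 3), while the interaction was 0.79 ± 0.38 (SE) (adjusted p = 0.641, edgeR).

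Cd63 total CPM was 2395, 3135 and 2172 in DMSO/sham, 2125, 1731 and 1836 in DMSO/TDP-43, 2499, 3049 and 1701 in C13/sham, and 2961, 2713 and 2026 in C13/TDP-43. Under DMSO all 3 TDP-43 libraries lay below the sham ones, at a log2 fold change of -0.44 ± 0.23 (SE) (adjusted p = 0.999, edgeR) and -0.26 without DMSO/sham replicate 2. Lamp2, which lines the membrane and is the receptor of chaperone-mediated autophagy, had a total CPM of 436, 430.2 and 462 in DMSO/sham, 508, 516 and 647 in DMSO/TDP-43, 526, 455 and 548 in C13/sham, and 429, 476 and 427 in C13/TDP-43. Under DMSO its TDP-43 libraries all lay above the sham ones, with replicate 3 highest of all. The log2 fold change was 0.33 ± 0.17 (SE) (adjusted p = 0.999, edgeR), that of C13 against DMSO with TDP-43 was -0.33 ± 0.17 (SE) (adjusted p = 0.833, edgeR), and the interaction was -0.53 ± 0.24 (SE) (adjusted p = 0.594, edgeR). Without DMSO/TDP-43 replicate 3 the first was 0.21 and the second -0.19. Without both DMSO/TDP-43 replicate 3 and C13/sham replicate 3 the interaction was -0.33 for Lamp2 and 0.43 for Cd68.

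Lamp1 total CPM was 1249.9, 939 and 1207 in DMSO/sham, 1179, 981 and 1064 in DMSO/TDP-43, 1103, 1069.6 and 1013 in C13/sham, and 1096, 1026 and 1165 in C13/TDP-43. Laptm5 total CPM was 1324, 1037 and 1200.0 in DMSO/sham, 1219.5, 903 and 1124 in DMSO/TDP-43, 1188, 1289.7 and 1419.5 in C13/sham, and 1265, 1108 and 1308 in C13/TDP-43. Tmem106b, a lysosomal membrane protein whose gene is a risk locus for frontotemporal dementia, had a total CPM of 34.0, 25.7 and 41.8 in DMSO/sham, 26.2, 28.2 and 31.2 in DMSO/TDP-43, 26.3, 26.8 and 44.7 in C13/sham, and 31.7, 35.6 and 32.5 in C13/TDP-43. In Lamp1 and Laptm5 the groups overlapped in all 4 pairwise comparisons. Tmem106b libraries of C13/TDP-43 all lay above those of DMSO/TDP-43, at a log2 fold change of 0.22 ± 0.28 (SE) (adjusted p = 0.975, edgeR). The remaining membrane genes ranged from 64.2 to 112 total CPM for Scarb2, a lysosomal membrane protein also known as LIMP-2, to 10.4 to 26.2 for Npc1 and 9.44 to 26.7 for Mcoln1.

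Of the proton pump genes, Atp6v1b2, a subunit of the catalytic sector, had a total CPM of 503, 604 and 601 in DMSO/sham, 526, 421 and 458 in DMSO/TDP-43, 515, 529 and 538 in C13/sham, and 567, 639.5 and 607 in C13/TDP-43. Its C13/TDP-43 libraries lay above those of both other groups they were compared with. C13 against DMSO with TDP-43 gave a log2 fold change of 0.37 ± 0.16 (SE) (adjusted p = 0.833, edgeR). Atp6ap1 ranged from 759 to 1624, Atp6v0d1 from 93.1 to 199 and Atp6v1h from 80.2 to 146 total CPM. Atp6v1a lay the other way, with its C13/TDP-43 libraries below those of both comparators, at log2 fold changes of -0.20 ± 0.16 (SE) against DMSO/TDP-43 and -0.18 ± 0.16 (SE) against C13/sham (adjusted p = 0.926 and 0.826, edgeR).

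The regulators did not pass either. Tfeb total CPM was 28.2, 47.7 and 43.5 in DMSO/sham, 52.5, 48.7 and 24.3 in DMSO/TDP-43, 44.9, 27.7 and 61.2 in C13/sham, and 46.6, 28.9 and 43.3 in C13/TDP-43. Tfe3 total CPM was 208, 269.7 and 169 in DMSO/sham, 202, 203 and 206 in DMSO/TDP-43, 195, 216 and 248 in C13/sham, and 203, 162 and 159 in C13/TDP-43. Neither set of groups stood apart. The largest pairwise log2 fold change of total Tfe3 was -0.33 ± 0.20 (SE) for TDP-43 against sham under C13 (adjusted p = 0.671, edgeR), and that of Tfeb was -0.17 ± 0.35 (SE) in the same comparison (adjusted p = 0.957, edgeR).

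Groups that did not overlap were counted without a test. For TDP-43 against sham under DMSO, 1 of 38 members was higher without overlap (5.49% of all genes) and 2 were lower (6.41%). Under C13 these were 4 higher (Psap, Atp6v1b2, Ctsb and Ctss, 6.69% of all genes) and 1 lower (Atp6v1a, 6.07%). With TDP-43, C13 against DMSO gave 3 higher (Atp6v1b2, Scarb2 and Tmem106b, 6.97%) and 3 lower (Lamp2, Npc1 and Atp6v1a, 6.48%). With sham it gave 0 higher (4.41%) and 0 lower (5.72%).

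**Figure D2:**
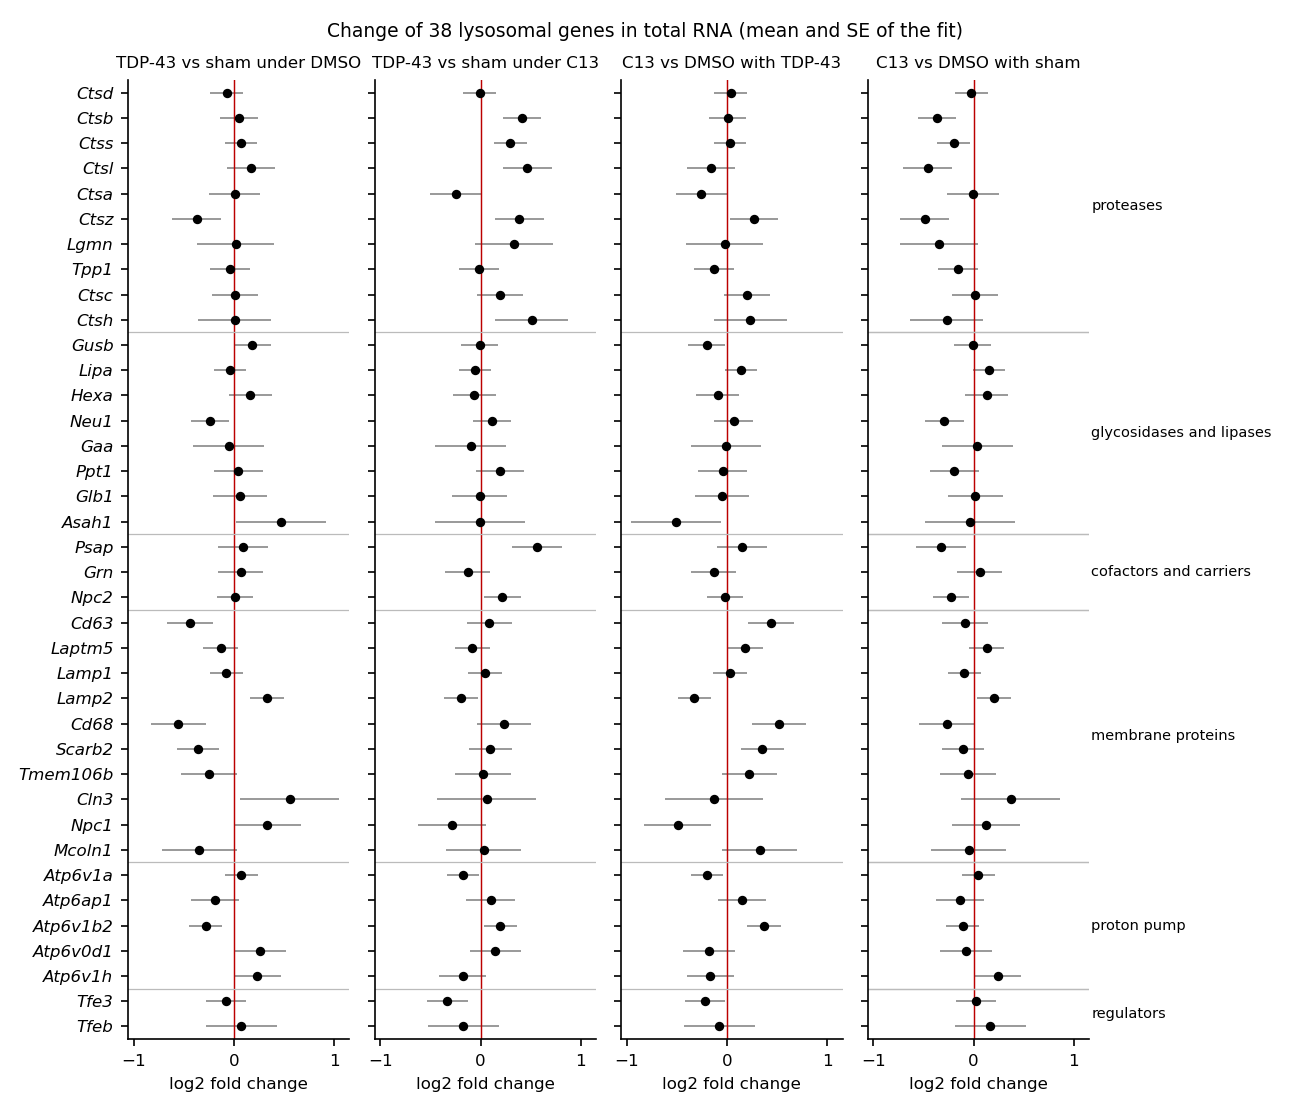
Log2 fold change with its SE for each lysosomal gene in total RNA, in the 4 pairwise comparisons, from 1 edgeR fit of all 12 libraries. Values lie between -0.56 and 0.56 in the panel of TDP-43 against sham under DMSO, and no gene passed the threshold.

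Nascent RNA was compared in the same way, to ask the same question of the RNA made in the 90 min pulse. Of the 38 members, 35 had enough nascent reads to be tested, Glb1, Ctsh and Asah1 being left out by the filter on low counts. Over all libraries these held 85, 130 and 82 nascent reads. EdgeR called 0 of 35 members in all 7 comparisons, and 0% of the 7078 genes tested in each, except the averaged TDP-43 comparison, with 1 gene (0.0141%), not a member. At an unadjusted p under 0.05, members numbered 0 for TDP-43 against sham under DMSO (3.19% of all genes), 3 under C13 (8.45%), 0 for C13 against DMSO with TDP-43 (4.59%) and 1 with sham (6.89%). They numbered 2 in the averaged TDP-43 comparison (5.59%), 1 in the averaged C13 comparison (5.96%) and 1 in the interaction (7.59%). DESeq2 called 1 member in 1 comparison, Cln3 for TDP-43 against sham under C13. The median SE of a member was 0.66 on the log2 scale, several times that in total RNA.

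Grn nascent CPM was 506, 795 and 489.9 in DMSO/sham, 458, 496 and 1079 in DMSO/TDP-43, 585, 672 and 1028 in C13/sham, and 476, 411 and 488 in C13/TDP-43. The C13/TDP-43 libraries lay below those of C13/sham and, by a narrow margin, below those of DMSO/sham, and the other pairs of groups overlapped. TDP-43 against sham under C13 gave a log2 fold change of -0.73 ± 0.48 (SE) (adjusted p = 0.723, edgeR), and those of the other pairwise comparisons were 0.18 ± 0.47 (SE) for TDP-43 under DMSO, 0.35 ± 0.47 (SE) for C13 against DMSO with sham and -0.56 ± 0.47 (SE) for the same with TDP-43 (adjusted p from 0.924 to 1.00, edgeR).

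Cln3, a lysosomal membrane protein lost in juvenile Batten disease, had no nascent reads in 1 whole group. The gene lies at chr7:126571207-126585817 on the minus strand. Its nascent reads were 4, 72 and 16 in DMSO/sham, 4, 48 and 0 in DMSO/TDP-43, 0, 0 and 0 in C13/sham, and 68, 36 and 3 in C13/TDP-43. All 3 libraries of C13/sham and 1 of DMSO/TDP-43 were at 0. Over the group, C13/sham had 0 nascent of 2112 total Cln3 reads, which allows a nascent share of up to 0.142%. With reads pooled by group and a floor of 3 counts for C13/sham, nascent Cln3 was 20.6-fold over that floor in C13/TDP-43 and 9.69-fold in DMSO/sham, in CPM. Pooling leaves out the spread between libraries. Replicate 2 held 72 of the 92 reads of DMSO/sham, and C13/TDP-43 replicate 3 held only 3. EdgeR did not call either difference (adjusted p = 0.530 for TDP-43 against sham under C13 and 0.672 for C13 against DMSO with sham), while DESeq2 called the first with an adjusted p of 0.0478. Total Cln3 reads were present in all libraries, and its total CPM ran from 13.5 to 57.6.

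Lamp2 nascent CPM was 237, 408 and 264 in DMSO/sham, 209, 258 and 501 in DMSO/TDP-43, 394, 336 and 482 in C13/sham, and 136, 134 and 199 in C13/TDP-43. The C13/TDP-43 libraries were the 3 lowest of all 12 and so lay below those of both C13/sham and DMSO/TDP-43. The log2 fold change was -1.37 ± 0.54 (SE) against C13/sham (adjusted p = 0.565, edgeR) and -1.05 ± 0.54 (SE) against DMSO/TDP-43 (adjusted p = 0.998, edgeR), the latter -0.58 without DMSO/TDP-43 replicate 3.

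Laptm5 nascent CPM was 605, 827 and 525 in DMSO/sham, 356, 647 and 414 in DMSO/TDP-43, 791, 599.9 and 2095 in C13/sham, and 573, 354 and 545 in C13/TDP-43. C13/sham replicate 3 stood far above the rest, and the other libraries spanned 354 to 827. TDP-43 against sham under C13 gave a log2 fold change of -1.24 ± 0.52 (SE) (adjusted p = 0.565, edgeR) and -0.45 without that library. Averaged over the drug arms it was -0.85 ± 0.36 (SE) (adjusted p = 0.872, edgeR) and -0.48 without it.

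Gaa, the acid alpha-glucosidase lost in Pompe disease, rested on single libraries. Its nascent reads were 26, 284 and 8 in DMSO/sham, 2, 10 and 0 in DMSO/TDP-43, 100, 2 and 3 in C13/sham, and 4, 14 and 86 in C13/TDP-43. DMSO/sham replicate 2, C13/sham replicate 1 and C13/TDP-43 replicate 3 held most of them, and the other 9 libraries held 0 to 26. TDP-43 against sham under DMSO gave a log2 fold change of -3.51 ± 1.71 (SE) (adjusted p = 1.00, edgeR) and -2.00 without DMSO/sham replicate 2. C13 against DMSO with TDP-43 gave 3.44 ± 1.71 (SE) (adjusted p = 0.998, edgeR) and 1.19 without C13/TDP-43 replicate 3. The averaged values were -2.04 ± 1.13 (SE) for TDP-43 and 1.98 ± 1.13 (SE) for C13, and -0.24 and 0.17 without C13/sham replicate 1. Without C13/TDP-43 replicate 3 they were -3.19 and 0.84, and without DMSO/sham replicate 2 that of TDP-43 was -1.29.

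Neu1, the lysosomal sialidase, had nascent CPM of 89.9, 113 and 77.4 in DMSO/sham, 43.5, 43.2 and 13.5 in DMSO/TDP-43, 65.9, 101 and 23.8 in C13/sham, and 105, 81.0 and 167 in C13/TDP-43. DMSO/TDP-43 lay below both DMSO/sham and C13/TDP-43 without overlap. The log2 fold changes were -1.48 ± 0.86 (SE) for TDP-43 against sham under DMSO (adjusted p = 1.00, edgeR) and 1.80 ± 0.87 (SE) for C13 against DMSO with TDP-43 (adjusted p = 0.998, edgeR). Both use the DMSO/TDP-43 libraries.

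Ctss, a cysteine protease of antigen-presenting cells, had nascent CPM of 714, 566 and 545 in DMSO/sham, 572, 213 and 131 in DMSO/TDP-43, 565, 446 and 135 in C13/sham, and 369, 223 and 299.7 in C13/TDP-43. DMSO/TDP-43 ranged from a library as high as the sham group to one below all others, at a log2 fold change against sham of -0.99 ± 0.61 (SE) (adjusted p = 1.00, edgeR). It was -1.82 without DMSO/TDP-43 replicate 1 and -0.64 without replicate 3.

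Tfe3 nascent CPM was 86.6, 109 and 155 in DMSO/sham, 93.7, 174 and 54.0 in DMSO/TDP-43, 23.7, 0 and 41.7 in C13/sham, and 17.1, 102 and 8.46 in C13/TDP-43. The C13/sham libraries, 1 of them at 0, all lay below the DMSO/sham libraries. C13 against DMSO gave a log2 fold change of -2.42 ± 1.22 (SE) with sham (adjusted p = 0.744, edgeR) and -1.87 ± 0.84 (SE) averaged over both aggregate arms (adjusted p = 0.817, edgeR). Tfeb nascent reads were 48, 246 and 150 in DMSO/sham, 42, 54 and 0 in DMSO/TDP-43, 0, 45 and 246 in C13/sham, and 126, 153 and 87 in C13/TDP-43, all multiples of 3, with 2 libraries at 0. Its C13/TDP-43 libraries lay above those of DMSO/TDP-43 in CPM, at a log2 fold change of 1.85 ± 1.38 (SE) (adjusted p = 0.998, edgeR).

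Atp6v0d1 nascent CPM was 16.5, 62.6 and 11.97 in DMSO/sham, 68.6, 56.9 and 84.8 in DMSO/TDP-43, 27.0, 30.1 and 268 in C13/sham, and 58.6, 20.2 and 10.9 in C13/TDP-43. One library, C13/sham replicate 3, was several times higher than any other. Against DMSO/sham, C13/sham gave a log2 fold change of 1.82 ± 1.12 (SE) (adjusted p = 0.766, edgeR) that turned to -0.18 without that library.

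**Figure D3:**
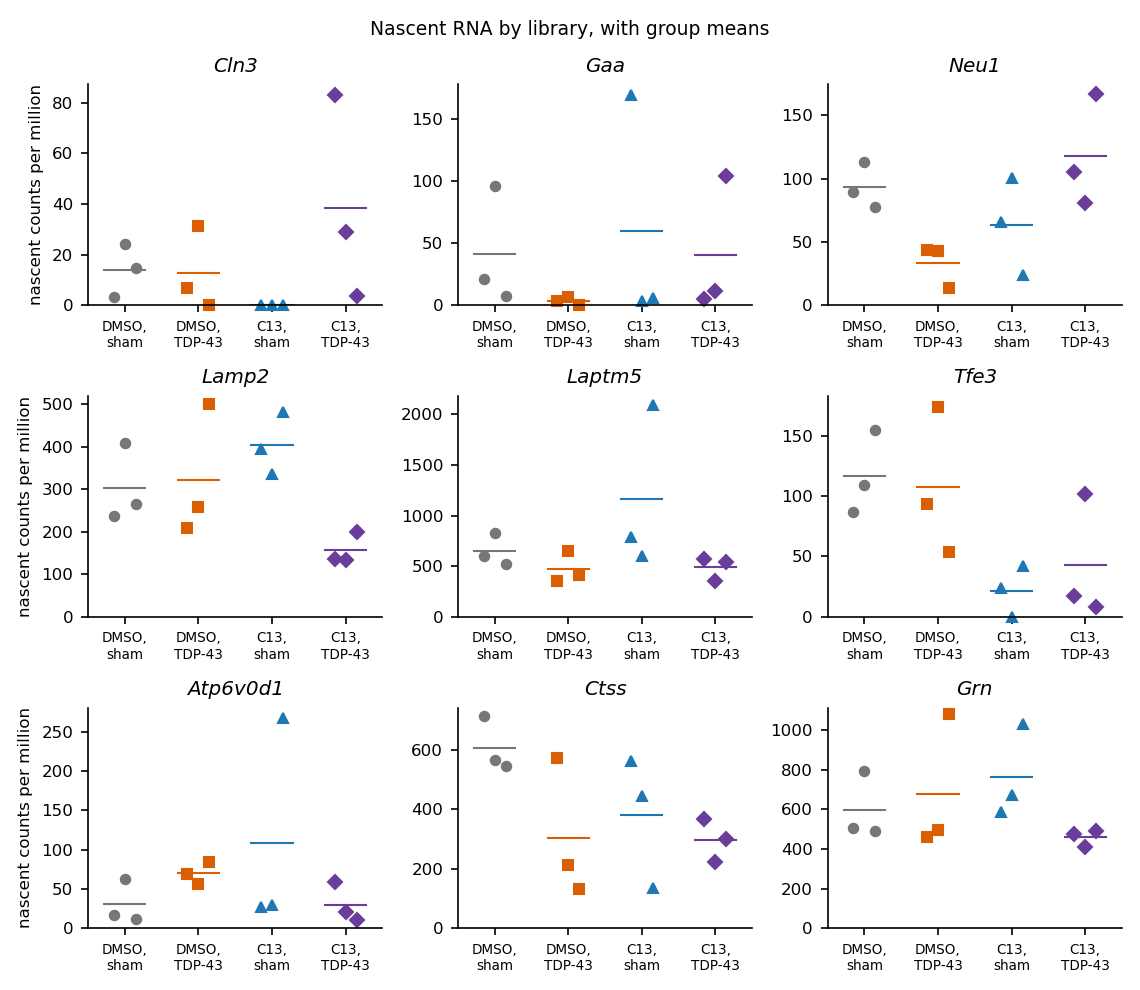
Nascent CPM per library for 9 lysosomal genes, by group, with the group mean as a bar. Cln3 is at 0 in all 3 C13/sham libraries, single libraries lead Gaa, Laptm5 and Atp6v0d1, and the C13/TDP-43 libraries of Grn lie below those of C13/sham.

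Without a test, members whose nascent CPM did not overlap between groups were 2 higher (Npc1 and Tpp1, 3.74% of all genes) and 3 lower (Mcoln1, Neu1 and Gaa, 6.56%) for TDP-43 under DMSO. Under C13 they were 1 higher (Cln3, 7.87%) and 4 lower (Lamp2, Laptm5, Tpp1 and Grn, 5.23%). With TDP-43, C13 against DMSO gave 2 higher (Neu1 and Tfeb, 6.02%) and 4 lower (Lamp2, Npc1, Lipa and Tpp1, 4.34%). With sham it gave 2 higher (Cd68 and Tpp1, 5.13%) and 2 lower (Tfe3 and Cln3, 9.14%). The median log2 fold change of the 35 members lay between -0.21 and -0.07 in these 4 comparisons, against -0.04 to 0.04 over all genes.

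Within a library, nascent reads can be set against the other reads of the same gene, which does not compare treatments. In one edgeR fit of both kinds of reads with the library as a term, 19 of the 35 members were poorer in nascent reads than in other reads (18.5% of all 7078 genes) and 1 was richer (9.28%), 20 in all against 27.8% of genes. The median log2 difference was -0.83 for the members and -0.56 over all genes, so the values below 0 are to be read against that shift. The scaling moves this shift and the split of calls over all genes, of which 657 of 1965 were richer here. In an offset fit with plain totals 886 of 1490 were richer and in one with TMM 1103 of 1540. Those fits had 16 members poorer and 2 richer (8.53% and 12.5% of all genes) and 13 poorer and 3 richer (6.17% and 15.6%), with member medians of -0.86 and -0.66 against -0.30 and -0.15 over all genes. They were added after seeing the data, since the main fit may place low, noisy genes below their true value. The check on simulated data did not split genes by level or spread, so this was not tested.

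The difference was also present above a cut on expression. Of genes with a mean of at least 100 total CPM, 16 of 26 members (61.5%) were poorer, against 28.6% of 1876 genes. This cut does not match members to other genes by level, and the part of level was not tested. Without any fit, the nascent percentage of a gene can be set against that of all reads in its library. It was lower in all 12 libraries for 11 of 35 members (31.4%), against 4.58% of the 7078 genes, and for 10 of 26 members (38.5%) against 11.5% of genes at 100 CPM or more. The 11 were Ctsa, Ctsd, Ctss, Grn, Psap, Lamp1, Laptm5, Tmem106b, Atp6v0d1, Atp6ap1 and Tfe3. Summed over all libraries, 2.19% of lysosomal reads were nascent, against 3.24% of all reads.

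All 3 cofactors and carriers were poorer in nascent reads. Grn nascent reads were 1.28%, 3.51% and 1.06% in DMSO/sham, 0.974%, 1.04% and 1.05% in DMSO/TDP-43, 1.32%, 0.921% and 0.968% in C13/sham, and 0.848%, 0.994% and 1.03% in C13/TDP-43 of its reads. Apart from DMSO/sham replicate 2, the library with the highest nascent share of all reads, the values lay between 0.848% and 1.32%. The lowest, in C13/TDP-43 replicate 1, had a 95% exact (Clopper-Pearson) interval of 0.766% to 0.936% and the highest one of 3.37% to 3.65%. These intervals cover counting error only, and they are too narrow where counts share a factor. The log2 difference of Grn was -1.26 ± 0.16 (SE) (adjusted p = 3.75e-05, edgeR), and those of Psap and Npc2 were -0.97 ± 0.12 (SE) (adjusted p = 3.48e-05, edgeR) and -0.71 ± 0.20 (SE) (adjusted p = 0.0169, edgeR).

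Relative to the library's share, Grn was one of the steadiest genes. Only 1.88% of 1807 genes had a smaller SD of the log2 nascent percentage relative to the library. Those 1807 had a mean of at least 100 nascent reads and no library at 0. They were not matched by count, and Grn averaged 636 nascent reads. Cd63, at chr10:128900989-128912822, lay at the other end. Its nascent percentage was 11.5%, 5.53% and 1.05% in DMSO/sham, 1.30%, 1.46% and 12.7% in DMSO/TDP-43, 2.44%, 13.1% and 0.158% in C13/sham, and 12.6%, 0.708% and 11.3% in C13/TDP-43. In every group some libraries were above 5% and others under 2.5%, an 82.8-fold span from 0.158% (95% exact interval 0.131% to 0.189%) to 13.1% (12.8% to 13.3%). Its SD exceeded that of 98.5% of those genes, and the swings did not follow the groups. The log2 difference was 0.25 ± 0.55 (SE) (adjusted p = 0.749, edgeR), and 1.17 and 1.36 in the offset fits, both of which called it richer.

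**Figure D4:**
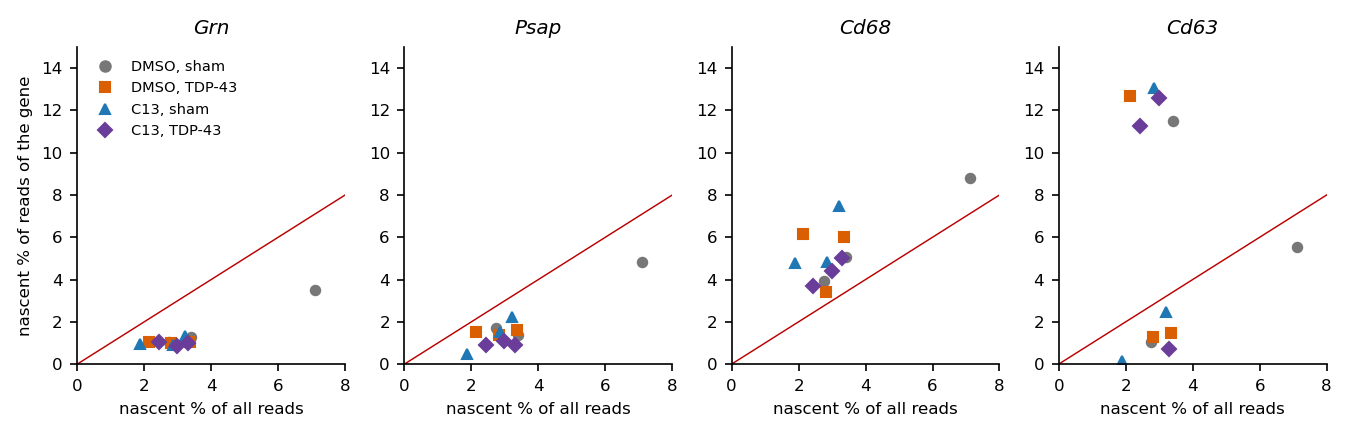
Nascent percentage of Grn, Psap, Cd68 and Cd63 against that of all reads in the same 12 libraries, with the red line marking equality. Grn and Psap lie under the line and Cd68 over it in all 12 libraries, while Cd63 lies on both sides.

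Of the 9 proteases tested, 4 were poorer: the carboxypeptidase Ctsa at -1.42 ± 0.21 (SE), Ctss at -1.17 ± 0.22 (SE), the legumain gene Lgmn at -1.13 ± 0.32 (SE) and Ctsd at -0.83 ± 0.13 (SE) in log2 difference (adjusted p from 0.000150 to 0.0165, edgeR). Ctsb, Ctsz and Ctsl were not called in this fit, with -0.48 ± 0.18 (SE), -0.47 ± 0.18 (SE) and -0.03 ± 0.20 (SE). The offset fit with plain totals called Ctsb at -0.59 and Ctsz at -0.58 poorer (adjusted p = 0.0238 and 0.0496, edgeR). That with TMM called neither. Tpp1, the tripeptidyl peptidase, and the dipeptidyl peptidase Ctsc were on the other side of 0, at 0.29 ± 0.23 (SE) and 0.42 ± 0.41 (SE), and were not called either. The nascent percentage of Tpp1 was 1.60%, 8.56% and 2.82% in DMSO/sham, 3.30%, 3.92% and 3.02% in DMSO/TDP-43, 5.46%, 4.14% and 2.02% in C13/sham, and 3.94%, 2.26% and 2.42% in C13/TDP-43. That of Ctsc was 3.88%, 8.07% and 3.75% in DMSO/sham, 6.45%, 2.49% and 9.86% in DMSO/TDP-43, 1.15%, 0.412% and 2.93% in C13/sham, and 3.04%, 6.98% and 6.22% in C13/TDP-43. Tpp1 varied most within DMSO/sham, and Ctsc had its lowest values in 2 libraries of C13/sham.

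Among the hydrolases of glycans and lipids, 3 of 6 tested were poorer: Gaa at -2.54 ± 0.59 (SE), the beta-hexosaminidase subunit Hexa at -1.09 ± 0.36 (SE) and Neu1 at -0.94 ± 0.30 (SE) (adjusted p = 0.00578, 0.0336 and 0.0290, edgeR). The call of Hexa was lost without any 1 of DMSO/sham replicates 1 and 3, DMSO/TDP-43 replicate 3, C13/sham replicates 1 and 2 and C13/TDP-43 replicates 1 and 3 (edgeR adjusted p from 0.0534 to 0.0882). That of Neu1 was lost without any 1 of DMSO/sham replicates 1 and 3, DMSO/TDP-43 replicate 3, C13/sham replicate 3 and C13/TDP-43 replicates 1 and 2 (0.0531 to 0.0659). The nascent percentage of Gaa was 0.841%, 8.75% and 0.349% in DMSO/sham, 0.126%, 0.220% and 0% in DMSO/TDP-43, 6.35%, 0.0912% and 0.138% in C13/sham, and 0.203%, 0.774% and 2.38% in C13/TDP-43. It exceeded the library's own share in DMSO/sham replicate 2 and C13/sham replicate 1 and was under 1% in 9 libraries. The library at 0, with 1502 reads, allows up to 0.200%. Gusb, the beta-glucuronidase, Lipa and Ppt1 were not called, with 3.03%, 2.89% and 2.57% of reads nascent over all libraries.

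Of 10 membrane genes, 5 were poorer: Cln3 at -3.75 ± 1.06 (SE), Tmem106b at -1.66 ± 0.53 (SE), Lamp1 at -1.09 ± 0.16 (SE), Laptm5 at -0.83 ± 0.17 (SE) and Lamp2 at -0.71 ± 0.17 (SE) (adjusted p from 0.000195 to 0.0295, edgeR). The nascent percentage of Tmem106b was 2.89%, 6.94% and 0.371% in DMSO/sham, 0.584%, 2.59% and 0.103% in DMSO/TDP-43, 0.440%, 1.69% and 0.0515% in C13/sham, and 2.28%, 0.706% and 0.802% in C13/TDP-43, from 1 to 66 nascent reads a library. Every value was under the share of all reads in that library, but the call was lost without any 1 of DMSO/sham replicate 3, DMSO/TDP-43 replicates 1 and 3, C13/sham replicates 1 and 3 and C13/TDP-43 replicates 2 and 3 (edgeR adjusted p from 0.0539 to 0.0651). Scarb2, at -0.78 ± 0.39 (SE), and Npc1, at -1.06 ± 0.57 (SE), were not called. The value for Cln3 rests partly on its 4 libraries at 0, and in the offset fits it was -2.43 and -2.36.

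Cd68, at chr11:69664213-69666153, was the only member called richer in this fit, at 0.96 ± 0.19 (SE) (adjusted p = 0.00194, edgeR). Its nascent percentage was 5.06%, 8.81% and 3.92% in DMSO/sham, 3.42%, 6.02% and 6.14% in DMSO/TDP-43, 7.50%, 4.82% and 4.80% in C13/sham, and 4.42%, 5.03% and 3.71% in C13/TDP-43. Each value was above the share of all reads in its library, which held for 1 of 35 members (2.86%) and 4.04% of all genes.

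Of 5 pump genes, 3 were poorer: Atp6v0d1 at -1.72 ± 0.39 (SE), Atp6ap1 at -1.56 ± 0.26 (SE) and Atp6v1a at -0.52 ± 0.13 (SE) (adjusted p of 0.00490, 0.000544 and 0.0115, edgeR). Atp6v1a lay near the median of all genes. Atp6v1h and Atp6v1b2, at -1.18 ± 0.49 (SE) and -0.23 ± 0.15 (SE), were not called. The nascent percentage of Atp6v0d1 was 0.479%, 4.55% and 0.204% in DMSO/sham, 1.62%, 1.29% and 0.707% in DMSO/TDP-43, 0.734%, 0.919% and 1.85% in C13/sham, and 1.78%, 0.463% and 0.154% in C13/TDP-43. All 12 values were under the share of all reads, though the one in C13/sham replicate 3 only just.

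The regulators lay on different sides of 0. Tfe3 was poorer, at -2.03 ± 0.43 (SE) (adjusted p = 0.00318, edgeR), with a nascent percentage of 1.60%, 3.23% and 2.58% in DMSO/sham, 1.41%, 3.08% and 0.436% in DMSO/TDP-43, 0.415%, 0% and 0.195% in C13/sham, and 0.277%, 2.18% and 0.127% in C13/TDP-43. The library at 0, with 4291 reads, allows up to 0.0699% if each count is 1 read. The limit is 7 times that if counts are divided by their shared factor of 7. Tfeb was not called in this fit, at 0.83 ± 0.62 (SE) (adjusted p = 0.312, edgeR), and was called richer at 1.26 in the offset fit with TMM. Its nascent percentage was 5.39%, 14.0% and 8.93% in DMSO/sham, 4.07%, 2.61% and 0% in DMSO/TDP-43, 0%, 8.20% and 9.23% in C13/sham, and 10.9%, 14.8% and 5.82% in C13/TDP-43. It was above the library's share in 9 libraries and at 0 in 2, which allow up to 0.395% and 0.386% if each count is 1 read. These limits are 3 times that if counts are divided by their shared factor of 3.

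**Figure D5:**
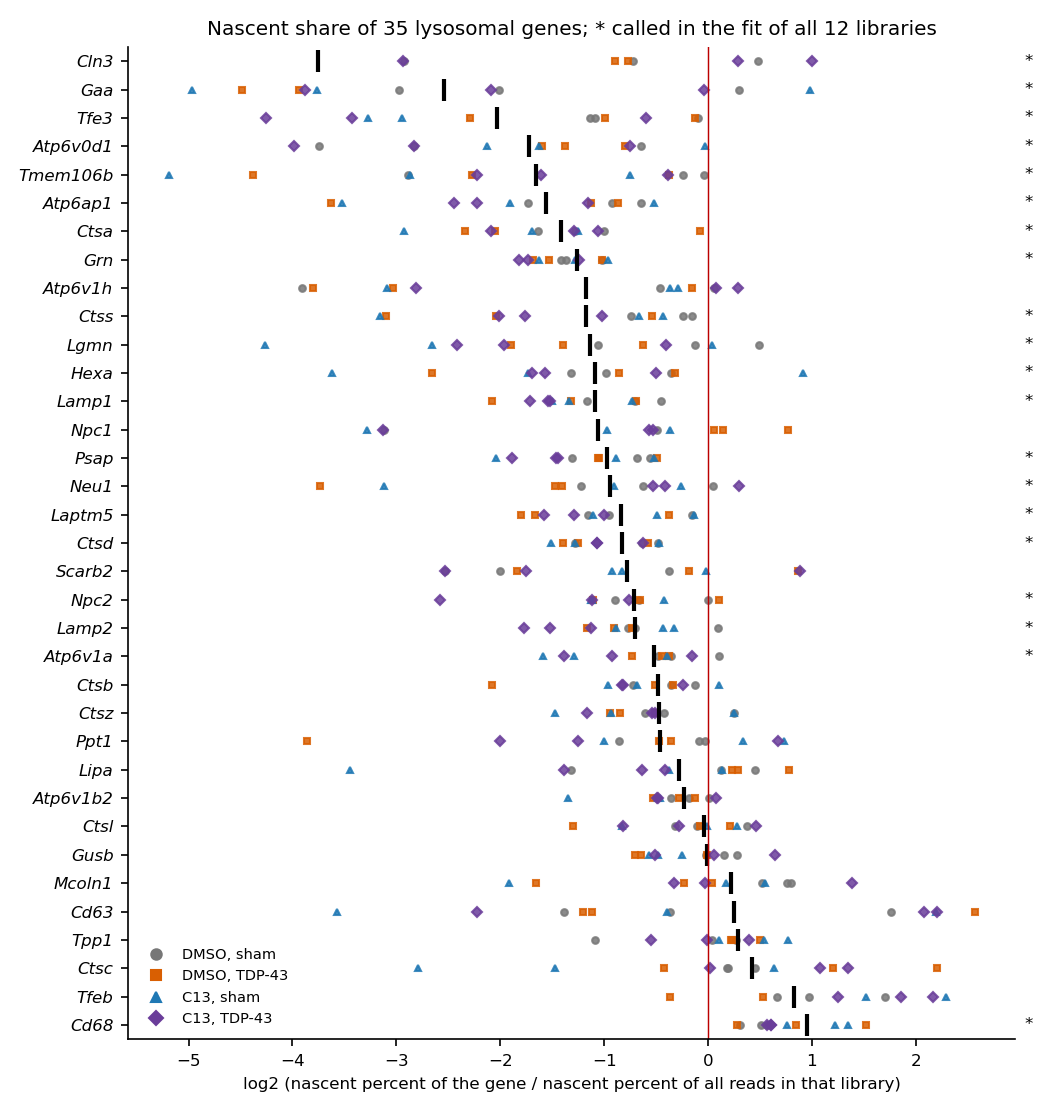
Nascent percentage of each lysosomal gene tested, relative to that of all reads in the same library (log2 axis), 1 point per library coloured by group, with the fitted value as a black tick and an asterisk for genes called by edgeR. Libraries with 0 nascent reads are not drawn (4 for Cln3, 2 for Tfeb and 1 each for Gaa, Npc1 and Tfe3); most genes lie left of 0, and Cd68 lies right of it in all libraries.

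The labelling chemistry marks uridines, so the T content of annotated 3′ ends was looked at. The share of T in the last 250 bases was averaged over the annotated protein-coding transcripts of each gene. Which of these ends the cells used was not looked at. That share was a median of 28.8% in the 35 members and 28.1% in 6933 genes. It was 28.8% in the 19 poorer members and 28.7% in the other 16. Across genes, which are not independent replicates, Spearman's rho between that share and the log2 difference was 0.0043.

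Whether nascent reads moved apart from other reads with treatment was also tested. EdgeR called 0 of 35 members in the 4 pairwise and 2 averaged comparisons, and 0% of all genes except 1 gene (0.0141%) in the averaged TDP-43 comparison. At an unadjusted p under 0.05 there were 1 member for TDP-43 under DMSO (2.54% of all genes), 2 under C13 (5.65%), 2 for C13 against DMSO with TDP-43 (3.6%), 2 with sham (5.19%), 3 in the averaged TDP-43 comparison (4%) and 1 in the averaged C13 comparison (4.04%).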

How the data were processed

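Total and nascent RNA were counted in 12 libraries of SIM-A9 cells, 3 in each of 4 groups taken from the labels. Raw counts per gene were deposited by the authors as a total and a nascent table with Ensembl identifiers, per the file headers. Per the submitters' processing notes the genome build was GRCm38. Not given in the sources used here are the aligner, counter and annotation, and the rule for calling reads nascent. Symbols came from a GRCm38 annotation that matched 30940 of 30994 identifiers. Depth was 17436397 to 41779882 total reads and 552042 to 2722812 nascent reads, so nascent values carry more counting error. No column of values was left unused (0 columns).

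The counts were filtered with filterByExpr, leaving 11827 total and 7078 nascent genes, scaled by TMM within each table, and tested by edgeR 4.0.16 in R 4.3.3 with its quasi-likelihood test, all 12 libraries in 1 fit of 4 group means, and Benjamini-Hochberg adjustment over all genes with a threshold of 0.05. CPM use the TMM-scaled library sizes. Nascent and other reads (total minus nascent) were compared in 1 fit with the library as a term. Counting intervals are 95% exact binomial ones, and a count of 0 was given a floor of 3 counts. Both take each count as 1 read, so intervals are too narrow and limits too low where counts share a factor. The tests were checked on simulated data, without splitting genes by level or spread. The fit of nascent against other reads may place low, variable genes under their true value, which was not tested. For that reason 2 fits with the other reads as an offset were added after seeing the data.

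The members and lists were chosen with earlier results of these data known. The 10 genes Grn, Tmem106b, Tfeb, Tfe3, Ctsb, Ctsd, Ctsl, Lamp1, Cd68 and Laptm5 are given by library, as are the 3 members with the smallest p in each pairwise or averaged comparison of a table and the 5 members richest and 5 poorest in nascent reads. Related lists are named by at most 3 genes with the smallest p. The alternatives were DESeq2 1.42.0, its size factors in edgeR, no filter, plain totals, other library sizes for nascent counts, a minimum of 20 nascent reads, counts divided by their common factor, only the groups compared, a replicate block, and leaving out each library or 2 libraries that stood apart in an earlier analysis.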

Additional observations from a re-analysis of the deposited data

How the results depend on the processing

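Over the alternatives, 407 counts of called members stayed within 1.5 times the main count and 4 moved. Most of the 407 were counts of 0 in treatment comparisons that stayed at 0. There the main fit called 0 or 1 of all genes, so these counts say little about stability. DESeq2 called 1 member (Cln3, log2 6.88) for TDP-43 against sham under C13 in nascent RNA, where edgeR called 0. Over all genes DESeq2 called 8 to 108 in the total comparisons and 7 to 77 in the nascent ones, and 3301 in nascent against other reads, where edgeR called 1965. Members richer in nascent reads numbered 1, and 2 without C13/sham replicate 1, 2 in the offset fit with plain totals and 3 in that with TMM. Leaving out each library gave 1 to 2 richer and 18 to 22 poorer members and 0 in every treatment comparison. Of the 20 calls in nascent against other reads, 14 were kept under all 20 alternatives. The other 6, Gaa, Lgmn, Npc2, Neu1, Tmem106b and Hexa, were lost in at least 1 of them, all 6 in the offset fit with TMM. Atp6v0d1 in nascent RNA, C13 against DMSO with sham, turned from 1.82 to -0.18 without C13/sham replicate 3 (up to 2.81 without DMSO/sham replicate 2), -0.14 without both libraries that stood apart and -0.28 with the library sizes of the total table. Those sizes moved the members' median in nascent RNA to -0.96 for TDP-43 under DMSO, -1.11 for C13 against DMSO with sham, -0.59 for averaged C13 and 1.20 for the interaction, while all genes moved to -0.84, -1.02, -0.45 and 1.19. The cause of each of these changes was not tested.

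Same-numbered libraries of different groups correlated at -0.03 to 0.06 in nascent and -0.07 to 0.23 in total RNA. Differently numbered ones correlated at -0.05 to 0.05 and -0.29 to 0.28. In total RNA 5 of 18 same-numbered pairs were above 0.1, against 2 of 36 others. The main fit did not take the numbers to pair libraries, and whether some of them shared handling was not tested. With the replicate block edgeR called 0 members in each treatment comparison, and 2 of all genes in the total interaction. With no filter on low counts edgeR called 10 to 124 of all genes in the total and 6 to 38 in the nascent comparisons, and 0 members. Depth limits the nascent values: a member's median SE was 0.66 on the log2 scale in nascent and 0.23 in total RNA.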

Other observations

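Other genes of the same organelle were read from 6 lists with 13 to 28 genes each. No gene of these lists was called by edgeR in a treatment comparison of either table. In total RNA the smallest p of each list were those of Rraga, a GTPase that tethers mTORC1 to lysosomes, at a log2 fold change of 0.73 ± 0.24 (SE) for C13 against DMSO with TDP-43 (edgeR adjusted p = 0.779), the acid phosphatase Acp5 at -1.93 ± 0.65 (SE) for TDP-43 against sham under DMSO (0.999), the sorting adaptor Gga1 at -0.90 ± 0.30 (SE) for C13 against DMSO with TDP-43 (0.779), and the sialomucin Cd164 at 0.53 ± 0.20 (SE) for TDP-43 under DMSO (0.999). The ESCRT gene Tsg101 gave -0.90 ± 0.38 (SE) (0.801) and the pump gene Atp6v1d 0.36 ± 0.20 (SE) (0.847) for C13 against DMSO with sham. In nascent RNA, Lgals3, the galectin that marks broken lysosomes, gave -1.66 ± 0.50 (SE) for TDP-43 against sham under C13 (0.530), and the pump gene Atp6v0e -1.73 ± 0.49 (SE) in the averaged TDP-43 comparison (0.832).

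In nascent against other reads the lists held calls on both sides, named here after their values were seen (18.5% of all genes poorer and 9.28% richer). Among other hydrolases, Gm2a at -2.34 ± 0.50 (SE) and Naaa were poorer. How many of that list were tested is not given here, so no share can be set beside the 18.5%. Of 14 other membrane genes 1 was, Slc17a5. Of 12 other pump genes 4 were poorer, while Tcirg1 was richer at 1.79 ± 0.40 (SE). Of 19 sorting and delivery genes 5 were poorer, Vps39, Gnptab, Gga2, Vps26a and Arl8b. Among 15 genes of TFEB and mTORC1 control, the Ragulator subunits Lamtor1, Lamtor3 and Lamtor5 were poorer and Lamtor2 was richer at 1.07 ± 0.21 (SE), as were Zkscan3 and Fnip1. Of 11 genes of lysosomal damage, Lgals9, Pi4k2a and Chmp4b were poorer, and the autophagy receptor Sqstm1 at 0.75 ± 0.14 (SE) and Lgals1 at 1.54 ± 0.19 (SE) were richer.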
